A study of Mus musculus with 28 samples.

Results

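The insulin-like growth factor (IGF) axis was described in tail tendon by its 2 ligands *Igf1* and *Igf2*, their receptors *Igf1r* and *Igf2r*, and 6 binding proteins, *Igfbp2* to *Igfbp7*. These 10 genes, taken as the measured ligands, receptors and binding proteins of the pathway, are 10 of the 25719 gene identifiers counted in each of 28 bulk RNA-sequencing libraries. Each library came from the tail tendon fascicles of a C57BL/6 mouse, either a non-transgenic WT control of the same breeding or a Fosl-2(Tg) mouse, in which a randomly inserted murine *Fosl2* gene, followed in frame by eGFP, is driven by the H2Kb promoter of MHC class I. That promoter is active in many cell types, so the transgene is not restricted to tendon cells. The early cohort held 7 WT and 8 Fosl-2(Tg) mice of 6 to 8 weeks, all male. The established cohort held 6 WT and 7 Fosl-2(Tg) mice older than 14 weeks, 5 and 6 of them female, with 1 male in each genotype. Stage and sex therefore cannot be told apart in most comparisons between cohorts. Genotypes were compared within a cohort, which asks how transgenic tendon differed from control tendon at that stage, and cohorts were compared within a genotype, which asks how tendon differed with stage. As the RNA came from whole fascicles, fewer cells of a type and less RNA per cell cannot be told apart for any gene below.

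IGF1 and IGF2 are secreted growth factors that signal through the receptor tyrosine kinase IGF1R, which acts on the PI3K, AKT and MAP kinase pathways and in tendon is known for promoting matrix synthesis and cell growth. IGF2R, the cation-independent mannose 6-phosphate receptor, takes up IGF2 for degradation and carries lysosomal enzymes. The binding proteins hold the ligands in the tissue, extend their life and limit their access to the receptor, and secreted proteases release the ligands by cleaving the binding proteins.

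The stretches of 250 bases before the annotated RefSeq start (build GRCm38.p6) are shown for 4 genes on which the results below turn: *Igf1* with *Igfbp4* and *Igfbp5*, whose estimates were lower in established Fosl-2(Tg) tendon, and *Igf1r*, whose estimate was higher. They are written 5′ to 3′ on the strand of the gene, with capitals for matches on either strand to short patterns. These were GGGCGG (the GC box), TATAAA or TATATA (the TATA box) and TGANTCA, called the AP-1 letters below. TGANTCA is a loose form of the AP-1 site, as any base was accepted at N, and it reads the same on both strands apart from that middle base. *Fosl2* encodes a subunit of AP-1, which is why those letters were searched.
Igf1, chr10:87860861-87861110, plus strand: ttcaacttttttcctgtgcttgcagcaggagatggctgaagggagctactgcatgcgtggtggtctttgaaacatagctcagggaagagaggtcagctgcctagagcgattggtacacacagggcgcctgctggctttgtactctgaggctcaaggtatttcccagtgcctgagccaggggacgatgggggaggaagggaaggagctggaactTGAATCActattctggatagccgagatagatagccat
Igfbp4, chr11:99040994-99041243, plus strand: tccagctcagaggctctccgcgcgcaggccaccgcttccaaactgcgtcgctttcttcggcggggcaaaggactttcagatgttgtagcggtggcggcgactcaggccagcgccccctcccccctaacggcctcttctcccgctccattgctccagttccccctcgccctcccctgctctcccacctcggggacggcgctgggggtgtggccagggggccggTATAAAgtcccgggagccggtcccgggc
Igfbp5, chr1:72874866-72875115, minus strand: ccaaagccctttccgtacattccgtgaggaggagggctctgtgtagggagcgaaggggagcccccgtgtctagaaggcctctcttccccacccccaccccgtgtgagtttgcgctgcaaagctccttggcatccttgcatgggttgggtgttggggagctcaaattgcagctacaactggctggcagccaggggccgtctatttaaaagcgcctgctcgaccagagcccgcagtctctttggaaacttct
Igf1r, chr7:67952007-67952256, plus strand: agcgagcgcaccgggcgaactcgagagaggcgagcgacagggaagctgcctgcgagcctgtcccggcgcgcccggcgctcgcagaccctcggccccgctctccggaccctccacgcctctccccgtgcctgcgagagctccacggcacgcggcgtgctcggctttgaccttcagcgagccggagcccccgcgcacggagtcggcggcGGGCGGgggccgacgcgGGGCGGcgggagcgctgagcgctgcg
*Igf1* held 1 match to these loose AP-1 letters, TGAATCA, with A as the middle base, whose first base lies 37 bases before the start. *Igfbp4* held a TATAAA that begins 28 bases before its start, *Igf1r* held 2 GC boxes, and *Igfbp5* held none of the searched letters. All 10 genes were matched to 14 windows, because *Igf2* has 4 annotated starts and *Igfbp2* has 2. The AP-1 letters stood in 2 of the 14 windows, those of *Igf1* and of 1 *Igfbp2* start, and in 6.75% of the 32851 windows of the same length in the table. GC boxes stood in 6 of the 14 (32.7% of all windows) and TATA letters in 3 (15.6%), namely *Igfbp3*, *Igfbp4* and *Igfbp6*. GC content ran from 47.6% at 1 *Igf2* start to 77.6% at *Igf1r*.

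The libraries held 9645598 to 66894396 counts on genes. *Fosl2*, the targeted gene, had 78.1 to 169 CPM (counts scaled to a common library size) in established WT and 121 to 160 in established Fosl-2(Tg) mice, and 58.8 to 136 and 63.4 to 156 CPM in the early groups, so the genotypes overlapped in both cohorts. Its log2 fold change was 0.20 (SE 0.24, adjusted p = 0.918) early and 0.38 (SE 0.15, adjusted p = 0.141) in the established cohort. Counts of the gene do not separate the transgene from the endogenous copies. Tendon markers were present: the 8 genes of that list (*Tnmd*, *Scx*, *Mkx*, *Fmod*, *Thbs4*, *Kera*, *Comp*, *Col1a1*) summed to 63570 to 132100 CPM in established WT libraries, but to 2744 to 55700 CPM in established Fosl-2(Tg) libraries. All levels are CPM scaled by trimmed mean of M-values (TMM) over the 28 libraries. Fold changes are log2 Fosl-2(Tg) over WT, or established over early, from edgeR's quasi-likelihood test with p-values adjusted by Benjamini-Hochberg across every gene in the fit, and a gene was called at an adjusted p of at most 0.05.

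Binding proteins were the most abundant RNAs of the axis. Per kilobase of exon, *Igfbp5* and *Igfbp6* had mean levels of 571 and 477 CPM over the 28 libraries, higher than 99.8% of 16022 genes, followed by *Igfbp4* (139), *Igfbp7* (45.6) and *Igf1* (37.3). The receptors came next, with 14.7 CPM per kilobase for *Igf2r* and 8.67 for *Igf1r*, and *Igfbp3* (4.54), *Igfbp2* (1.60) and *Igf2* (1.30) were lowest. The order shifted at a few places. In early WT, *Igfbp5* (624 ± 194 CPM per kilobase, SD, n = 7) and *Igfbp6* (565 ± 144) overlapped, and so did *Igfbp7* (56.1 ± 8.62) and *Igf1* (49.4 ± 21.4), whereas in established WT *Igfbp5* (749 ± 159, n = 6) stood above *Igfbp6* (452 ± 23.6). In established Fosl-2(Tg) mice, *Igfbp6* (370 ± 97.9 CPM per kilobase, n = 7) and *Igfbp5* (349 ± 137) were again within their spread, and *Igf2r* (15.0 ± 1.41), *Igf1* (13.4 ± 8.94) and *Igf1r* (11.9 ± 1.78) had come together. No order is read between these 3 genes, as their standard deviations overlap.

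**Figure D1:**
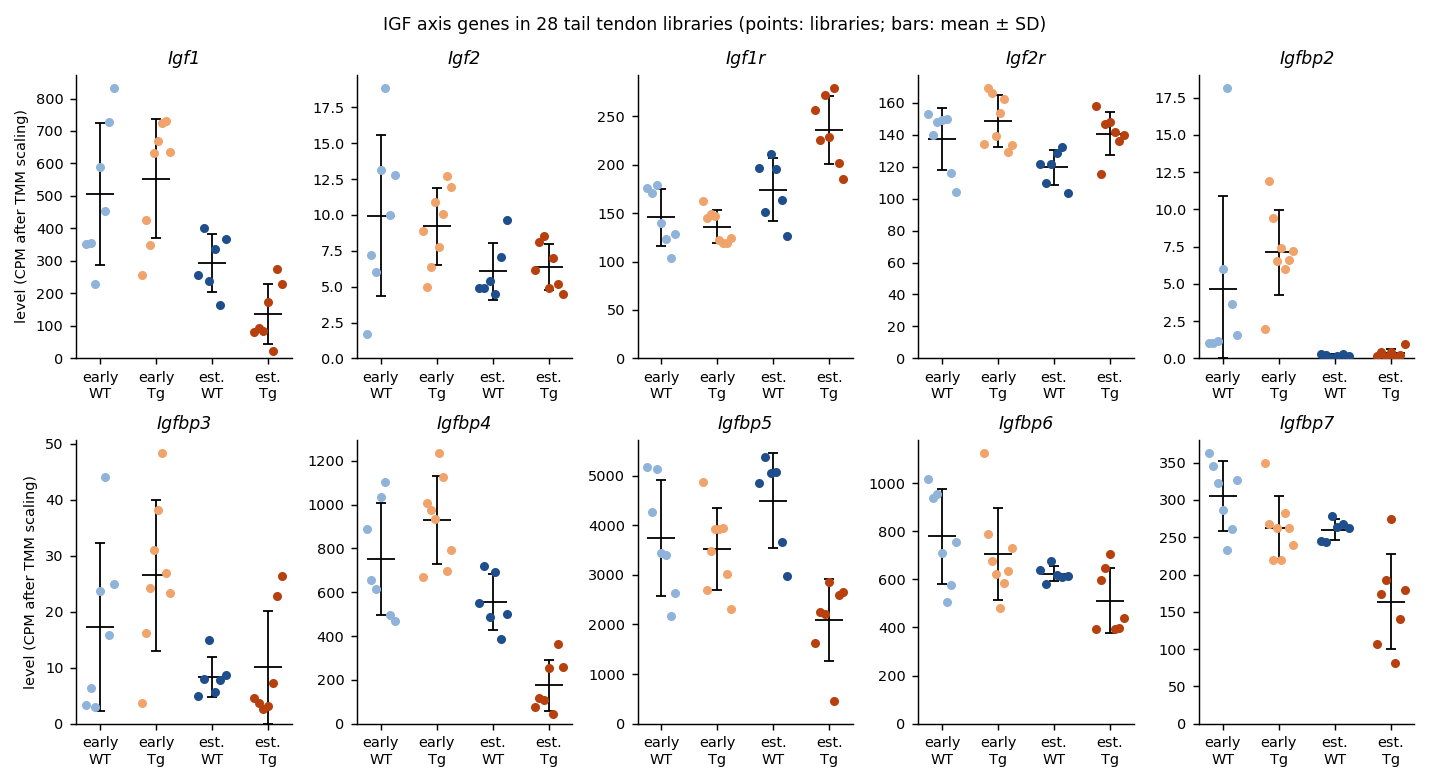
Level of each of the 10 genes in CPM after TMM scaling (vertical axes, linear, starting at 0) in every library of the 4 groups, with black bars for mean ± SD; an SD bar that would pass below 0 ends at 0. The 7 established Fosl-2(Tg) libraries lie below all 6 established WT libraries for *Igfbp4* and *Igfbp5*, and *Igfbp2* is near 0 in both established groups.

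Of the ligands, *Igf1*, the growth hormone responsive factor that tissues also make locally, lies on chromosome 10 (GRCm39, positions 87693642 to 87772904). It ranged from 229 to 832 CPM in early WT (median 455) and, in early Fosl-2(Tg) tendon, from 257 to 731 (median 634). In the established cohort it ranged from 166 to 402 CPM in WT (median 297) while Fosl-2(Tg) libraries spanned 21.9 to 276 (median 92.6). Established Fosl-2(Tg) levels were thus at the low end, with 4 of 7 libraries below all WT libraries and 3 within their range. The established difference was -1.10 log2 (SE 0.44, unadjusted p = 0.0242, adjusted p = 0.130), all 7 Fosl-2(Tg) libraries lying below the WT mean, and it was not called. With sex as a covariate it was called, at -1.30 (adjusted p = 0.0390). With the replicate number as a block, a pairing that the labels do not state, it was called at -1.58 (adjusted p = 0.0243). Among females alone it was not (-1.03, adjusted p = 0.0971), nor in DESeq2 (adjusted p = 0.104) or with the muscle marker level as a covariate (adjusted p = 0.0833). In all, it was called in 2 of 9 alternative settings and in 0 of 13 fits that left out 1 library. Early genotypes differed by 0.13 (SE 0.27, adjusted p = 0.952), a value that turned to -0.049 without TMM. Between cohorts, *Igf1* fell in Fosl-2(Tg) mice by 2.01 on the log2 scale (SE 0.41, adjusted p = 0.000917), where 6 of 7 established libraries were below all early ones, while the WT estimate was -0.78 (SE 0.29, adjusted p = 0.136). The interaction of genotype and stage, which tests whether the genotype difference itself changed, was -1.23 (SE 0.53, adjusted p = 0.142).

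*Igf2*, the imprinted fetal growth factor, was low throughout. It had 1.73 to 18.8 CPM in early WT, 5.01 to 12.7 in early Fosl-2(Tg), 4.51 to 9.67 in established WT and 4.45 to 8.56 in established Fosl-2(Tg) tendon, so genotypes overlapped in both cohorts. Genotype differences were -0.11 (SE 0.34, adjusted p = 0.972) early and 0.08 (SE 0.21, adjusted p = 0.835) in the established cohort. The 95% interval of the latter, -0.37 to 0.53, is the range of differences that these libraries leave possible. *Igf2* was lower in established than early Fosl-2(Tg) mice by 0.53 (SE 0.20, adjusted p = 0.0385) when scaled by TMM, but its sign turned to 0.18 when libraries were scaled by their totals. The gene shares exons on the same strand with the gene model *Gm49394*, whose counts (25 to 403 per library) nearly equal those of *Igf2* (26 to 431), so how reads were divided between both is uncertain.

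Both receptors had higher estimates in established Fosl-2(Tg) than WT tendon, and neither was called with the test used throughout. *Igf1r*, the signalling receptor (chromosome 7, 67601518 to 67883416 in GRCm39), had 103 to 179 CPM in early WT (median 139.7), and early Fosl-2(Tg) mice had 119 to 163 (median 134). In the established cohort it ranged from 126 to 211 CPM in WT (median 179) while Fosl-2(Tg) libraries spanned 185 to 279 (median 229). The established groups overlapped in part, 5 of 7 Fosl-2(Tg) libraries lying above all WT libraries, with a difference of 0.44 (SE 0.13, adjusted p = 0.0649). It was called in DESeq2 (adjusted p = 0.0236), in 1 fit of all libraries (adjusted p = 0.0366) and without TMM (0.77, adjusted p = 0.00221), and not among females (adjusted p = 0.157). *Igf1r* rose with stage in Fosl-2(Tg) mice by 0.80 log2 (SE 0.11, adjusted p = 2.67e-05), all 7 established libraries above all 8 early ones, and was the single member called higher there. In WT the stage estimate was 0.26 (SE 0.15, adjusted p = 0.330), and the interaction was 0.53 (SE 0.18, adjusted p = 0.0674). Exons of *Igf1r* overlap those of *Pgpep1l* on the opposite strand, a gene with 7 to 121 counts per library against at least 1301 for *Igf1r*.

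*Igf2r*, the receptor that clears IGF2, kept within a narrow range. It had 104 to 153 CPM in early WT and 129 to 169 in early Fosl-2(Tg), then 103 to 132 in established WT (median 122) against 116 to 158 with the transgene (median 141.5). The established difference of 0.24 (SE 0.086, unadjusted p = 0.0143, adjusted p = 0.0988) was small, with 6 of 7 Fosl-2(Tg) libraries above all WT libraries, and was called without TMM alone (0.57, adjusted p = 0.00136). It was the 1 member not called between the Fosl-2(Tg) cohorts (-0.07, SE 0.085, adjusted p = 0.504), and without TMM that estimate turned to 0.66 (adjusted p = 2.38e-06).

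The binding protein with the largest genotype difference was *Igfbp4*, an inhibitor of IGF action that pappalysin proteases cleave (chromosome 11, 98932064 to 98945218 in GRCm39). Its levels ran from 470.2 to 1105 CPM in early WT (median 657) and, in early Fosl-2(Tg) mice, from 668 to 1234 (median 954). Established WT mice had 387 to 718 CPM (median 525) and established Fosl-2(Tg) mice 43.6 to 364 (median 117). All 7 established Fosl-2(Tg) libraries lay below all 6 WT libraries after TMM scaling, but the groups overlapped when libraries were scaled by their totals. *Igfbp4* fell by 1.67 log2 (SE 0.40, 95% interval -2.53 to -0.80, adjusted p = 0.0310), and it was the only member called in that comparison. The call was lost, with an adjusted p of 0.0658 at most, in 7 of 13 fits that left out 1 library, those without Fosl-2(Tg) replicate 1, 2 or 3 or WT replicate 1, 2, 4 or 6. Over the 13 fits the difference stayed between -1.95 and -1.50, and every other alternative setting kept the call (adjusted p up to 0.0368). The early difference was 0.30 (SE 0.20, adjusted p = 0.855). The interaction was called at -1.98 (SE 0.45, adjusted p = 0.0116), and stayed called in each of 28 fits that left out a library (adjusted p up to 0.0223). With stage, *Igfbp4* fell by 2.41 in Fosl-2(Tg) mice (SE 0.37, adjusted p = 9.3e-05) against a WT estimate of -0.44 (SE 0.22, adjusted p = 0.269).

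*Igfbp5*, a matrix-bound binding protein abundant in connective tissue (chromosome 1, 72897091 to 72914043 in GRCm39), was the highest member by count. It ranged from 2176 to 5169 CPM in early WT (median 3439), from 2309 to 4873 in early Fosl-2(Tg) (median 3702) and from 2971 to 5368 in established WT mice (median 4947). Established Fosl-2(Tg) mice had 462 to 2861 CPM (median 2257), without overlap with WT, in which 2971 was lowest. The groups overlapped when libraries were scaled by their totals. The difference of -1.10 (SE 0.32, 95% interval -1.78 to -0.41, unadjusted p = 0.00397) missed the threshold at an adjusted p of 0.0546. It passed with the 5 WT and 6 Fosl-2(Tg) females alone (-0.97, adjusted p = 0.0213), with sex as a covariate (-1.26, adjusted p = 0.0165) and in DESeq2 (-1.11, adjusted p = 0.00595). In all, it passed in 6 of 9 alternative settings (adjusted p up to 0.0684). Of 13 fits that left out 1 library, it passed in 1 (adjusted p up to 0.107). In WT mice *Igfbp5* had a stage estimate of 0.26 (SE 0.22, adjusted p = 0.505), whereas in Fosl-2(Tg) mice it fell by 0.75 (SE 0.29, adjusted p = 0.0425), a value that shrank to -0.06 when libraries were scaled by their totals. The interaction was -1.01 (SE 0.38, adjusted p = 0.0934).

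*Igfbp7*, a secreted relative that binds IGFs weakly, had 244 to 278 CPM in established WT (median 263) and 81.5 to 274 in established Fosl-2(Tg) tendon (median 174), after 233 to 362.5 and 219 to 350 in the early groups. In 6 of 7 established Fosl-2(Tg) libraries it was below all WT libraries, with a difference of -0.66 (SE 0.21, unadjusted p = 0.00787, adjusted p = 0.0760). The WT libraries were close together, at 260 ± 13.7 CPM (SD, n = 6), and the Fosl-2(Tg) libraries were not, at 164 ± 63.1 (n = 7). Its exons overlap those of *Polr2b* on the opposite strand (580 to 4166 counts per library, against 1129 to 18889 for *Igfbp7*).

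*Igfbp6*, which prefers IGF2 to IGF1, overlapped between genotypes in both cohorts. It had 505 to 1019 CPM in early WT, 482 to 1124 in early Fosl-2(Tg), 580 to 677 in established WT and 393 to 706 in established Fosl-2(Tg) mice. The established difference was -0.28 (SE 0.15, adjusted p = 0.25), with 4 of 7 Fosl-2(Tg) libraries below and 1 above all WT libraries, and its sign turned to 0.03 without TMM.

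The least abundant binding proteins did not separate the genotypes. *Igfbp3*, the main carrier of IGFs in blood, ranged from 2.92 to 44.0 CPM in early WT, 3.70 to 48.3 in early Fosl-2(Tg), 4.93 to 14.9 in established WT and 2.70 to 26.4 in established Fosl-2(Tg) tendon. The established libraries of Fosl-2(Tg) mice fell on both sides, 2 above and 4 below all WT libraries, and the difference was 0.29 (SE 0.55, adjusted p = 0.766). *Igfbp2*, a binding protein that also contacts integrins, had 1.04 to 18.1 CPM in early WT (median 1.60), and early Fosl-2(Tg) mice had 1.94 to 11.9 (median 6.90). In the established cohort it was near the detection limit, at 0 to 0.27 CPM (0 to 13 counts) in WT and 0.07 to 0.99 CPM (1 to 26 counts) in Fosl-2(Tg) mice. It did not pass the count filter there and has no genotype test. Between cohorts the libraries did not overlap in either genotype. The count filter works on CPM of library totals without TMM, a scale other than that of the levels above. Its limits for these comparisons were 0.47 CPM in WT and 0.56 in Fosl-2(Tg) mice. On that scale they were reached by 7 of 7 early and 0 of 6 established WT libraries. In Fosl-2(Tg) mice they were reached by 8 of 8 early and 2 of 7 established libraries. The gene was thus tested because of the group in which it is high, and its levels are given as a description, with no fold change or p. The early Fosl-2(Tg) estimate of 0.60 had an SE of 0.56 (adjusted p = 0.908).

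Counted over the axis, no member of 10 was called between early genotypes, where 0.0396% of 15138 genes were called (6 genes), 5 estimates being higher and 5 lower and none reaching an unadjusted p under 0.05. The early estimates of 6 members, *Igf1*, *Igf2*, *Igf1r*, *Igf2r*, *Igfbp5* and *Igfbp6*, changed sign under some other setting. DESeq2 also called no member early. With the replicate number as a block, which was used because every same-numbered early pair deviated together, 11 genes and again no member were called. In the established cohort 1 of 9 tested members was called, against 6.51% of 15862 genes, the lower calls being 3.37%. With levels scaled by TMM, groups did not overlap for 2 of the 9, *Igfbp4* and *Igfbp5*, against 3.81% of all genes. Scaled by library totals, both genes overlapped between the groups. An unadjusted p under 0.05 was reached by 6 of the 9, against 26.6% of all genes. The median of the 9 was -0.29 log2, against 0.01 over all genes. DESeq2 and a single fit of all 28 libraries each called 4 members, and the sex covariate also 4. A single call among 9 is close to the share over all genes.

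Between WT cohorts 4.74% of 15645 genes were called (2.76% lower), and 1 of the 10 members, *Igfbp2*, which entered the test through its early libraries and from which nothing is read. Of the other 9, edgeR and DESeq2 called 0, and 2, *Igf1* and *Igfbp7*, had an unadjusted p under 0.05. Their estimates ran from -1.06 for *Igfbp3* to 0.26 for *Igf1r* and *Igfbp5*. Between Fosl-2(Tg) cohorts 9 of 10 were called, 8 lower and 1 higher, against 46.8% of 15470 genes (22.5% lower and 24.2% higher). Without *Igfbp2* the count is 8 of 9. Of those not yet given, *Igfbp3* was at -1.40 (SE 0.55, adjusted p = 0.0455), *Igfbp6* at -0.46 (SE 0.18, adjusted p = 0.0471) and *Igfbp7* at -0.68 (SE 0.20, adjusted p = 0.0108), where the signs of *Igfbp6* and *Igfbp7* turned when libraries were scaled by their totals. TMM factors were 1.19 to 1.45 in established and 0.69 to 0.93 in early Fosl-2(Tg) libraries, and scaling by library totals instead moved the median of all genes from 0.03 to 0.75 in this comparison, so that *Igf2*, *Igf2r*, *Igfbp6* and *Igfbp7* turned positive while *Igf1* and *Igfbp4* stayed lower and called. The number called became 5 without TMM (*Igf1r*, *Igf2r*, *Igf1*, *Igfbp2* and *Igfbp4*), 5 without established Fosl-2(Tg) replicate 1 and 6 with sex as a covariate. Over the 15 fits that left out 1 library, 5 to 8 members were called. *Igfbp3* stayed called in 4 of these fits, *Igfbp6* in 6, and *Igf2* and *Igfbp5* in 7 each. The interaction was called for 1 of 10 members, *Igfbp4*, against 7.43% of 16082 genes. These comparisons share libraries, so their calls are not separate evidence.

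**Figure D2:**
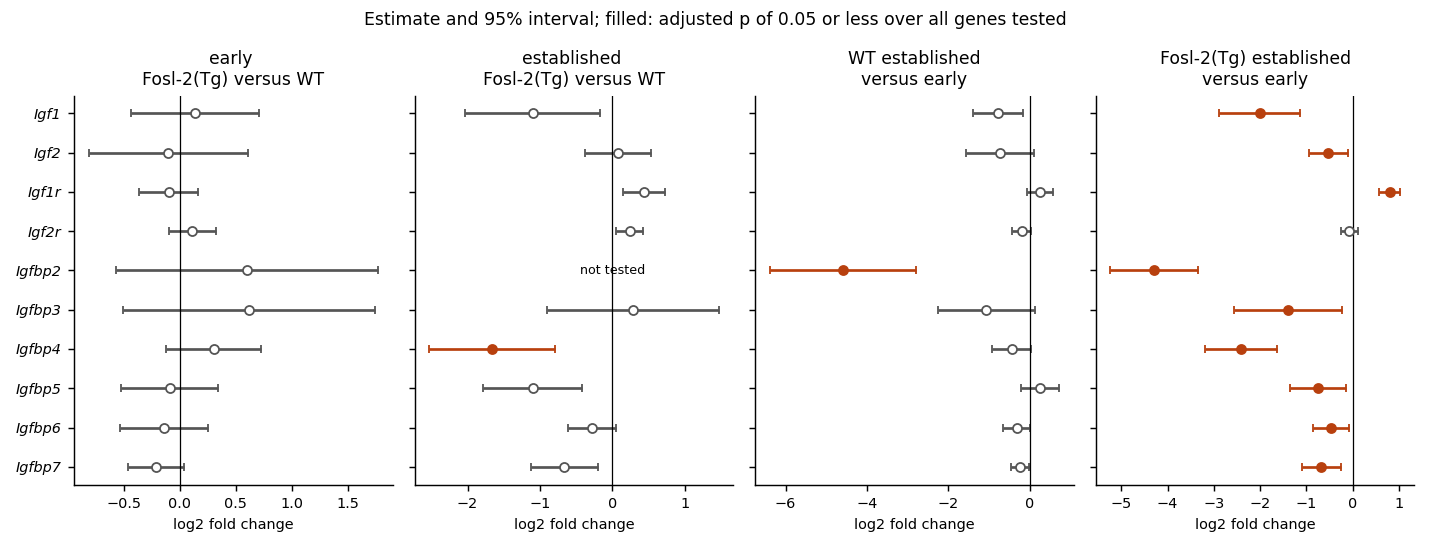
Log2 fold change (horizontal axes, scaled separately in each panel) with its 95% interval for each gene in the 2 genotype and 2 stage comparisons; filled orange points have an adjusted p of at most 0.05 in edgeR. Early intervals all include 0, *Igfbp4* alone is filled in the established panel, *Igfbp2* entered both stage panels through its early libraries, and 9 genes are filled in the Fosl-2(Tg) stage panel, of which *Igf2*, *Igfbp6* and *Igfbp7* change sign when libraries are scaled by their totals.

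After TMM scaling, the summed binding protein RNA was lower in every established Fosl-2(Tg) library than in any established WT library. The 6 genes summed to 1380 ± 181 CPM per kilobase in established WT (1100 to 1520, n = 6) and to 791 ± 230 in established Fosl-2(Tg) mice (389 to 1100, n = 7), the highest of the latter lying just under the lowest of the former. Scaled by library totals instead, the established groups overlapped. TMM factors were 1.19 to 1.45 in established Fosl-2(Tg) and 1.03 to 1.10 in established WT libraries. Early sums were 1420 ± 333 and 1370 ± 213. *Igfbp5* made up 53.9 ± 5.06% of the sum in established WT and 42.3 ± 10.7% in established Fosl-2(Tg) libraries, *Igfbp4* 9.11 ± 1.52% and 4.74 ± 2.76%, and *Igfbp6* 33.3 ± 4.70% and 48.8 ± 12.6%. Established Fosl-2(Tg) replicate 5, the only male of its group, had the extreme values, with 19.8% *Igfbp5* and 73.3% *Igfbp6*, and also the group's lowest *Igf1*, *Igfbp4*, *Igfbp5* and *Igfbp7*. The only established WT male, replicate 5, likewise had its group's lowest *Igf1* (166 CPM) and *Igfbp4* (387 CPM), but not the lowest *Igfbp5* or *Igfbp7*. The established ranges overlapped for each of these shares (44.8 to 58.7% and 19.8 to 51.7% for *Igfbp5*, 7.35 to 10.7% and 2.54 to 9.88% for *Igfbp4*, 27.6 to 40.4% and 34.5 to 73.3% for *Igfbp6*). Shares of a sum move together by construction and were given no test.

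**Figure D3:**
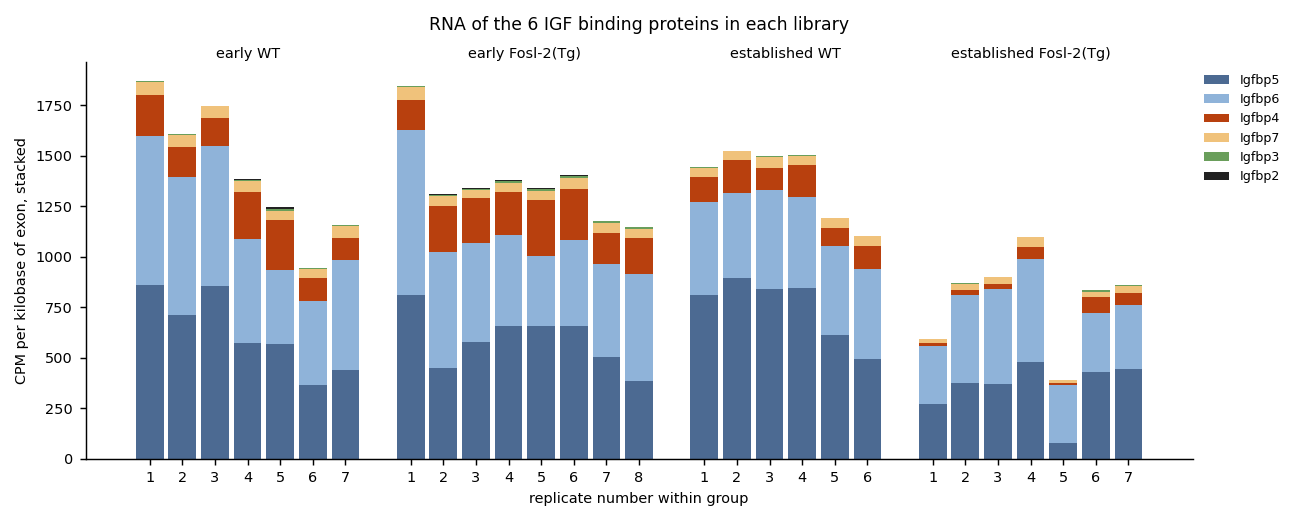
Stacked CPM per kilobase of exon (vertical axis, from 0) of the 6 binding proteins in each of the 28 libraries, ordered by group and replicate number, 1 color a gene. After TMM scaling, established Fosl-2(Tg) columns total 389 to 1100, against 1100 to 1520 in established WT, with *Igfbp4* the segment that shrinks most in proportion.

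Within groups, pairs of members ranged from opposed to parallel, with others near 0, such as *Igf1* and *Igf2* (r = 0.12). After each group's mean log2 CPM was removed, Pearson's r over the 28 libraries was 0.68 between *Igf1* and *Igfbp4*, -0.69 between *Igf1* and *Igf1r*, 0.69 between *Igfbp4* and *Igfbp5*, 0.75 between *Igfbp6* and *Igfbp7* and -0.79 between *Igfbp3* and *Igfbp6*, pairs chosen after their values were seen. These values describe libraries that share depth and tissue composition and carry no test. Between *Igfbp3* and *Igfbp6*, r was -0.87 in early WT, -0.94 in early Fosl-2(Tg), 0.40 in established WT and -0.67 in established Fosl-2(Tg) mice. In early WT replicates 1, 2 and 3 and early Fosl-2(Tg) replicate 1, *Igfbp3* was at 3.26, 6.34, 2.92 and 3.70 CPM. Their *Igfbp6* was at 1019, 939.5, 953 and 1124 CPM. All other early libraries had at least 15.8 CPM of *Igfbp3* and at most 791 of *Igfbp6*. The part of these libraries in r was not tested. The relation of *Igf1* and *Igf1r* had the same sign in each group (-0.82 and -0.88 in early WT and Fosl-2(Tg), -0.38 and -0.85 in established WT and Fosl-2(Tg)). That of *Igf1* and *Igfbp4* did not, being -0.28 in early WT and 0.97 in established Fosl-2(Tg) mice. Without established Fosl-2(Tg) replicate 5, r was 0.50 for *Igf1* with *Igfbp4*, 0.46 for *Igfbp4* with *Igfbp5* and -0.72 for *Igf1* with *Igf1r*. Of 16082 genes, those most like *Igf1* by this measure were *Gpm6b* (r = 0.91), *Ptn* (0.91) and *Cpq* (0.89). The genes most like *Igfbp4* were *Plod1* (0.94), *Rcn3* (0.93) and *Clec11a* (0.92), and for *Igf2* they were the overlapping *Gm49394* (1.00), *Wnt11* (0.82) and *Tinagl1* (0.78).

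**Figure D4:**
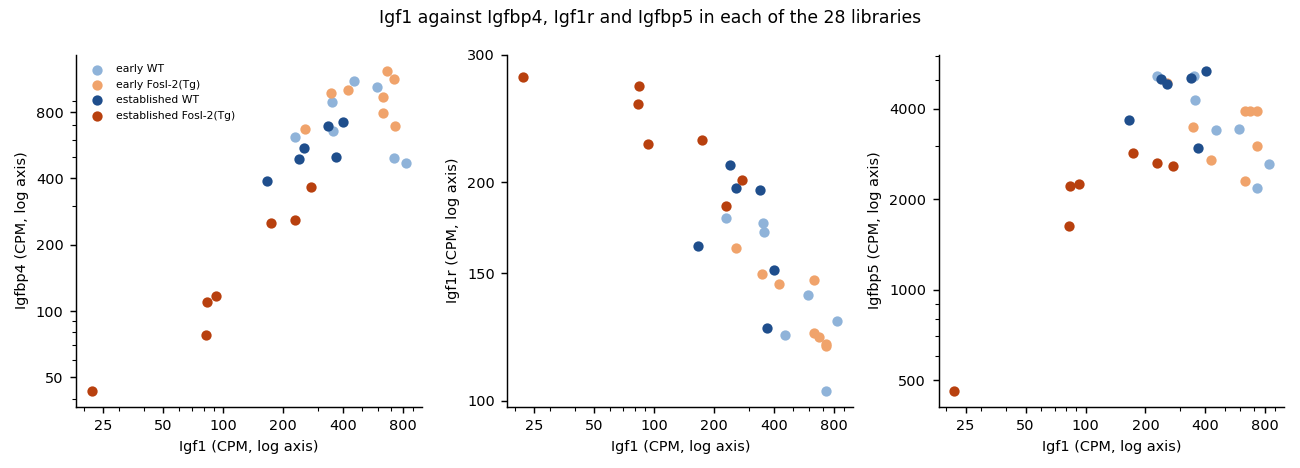
*Igf1* (horizontal axes) against *Igfbp4*, *Igf1r* and *Igfbp5* (vertical axes) in CPM on log axes, 1 point per library, colored by group. The lowest *Igf1* level, 21.9 CPM in an established Fosl-2(Tg) library, goes with the lowest *Igfbp4* (43.6 CPM), the lowest *Igfbp5* (462 CPM) and the highest *Igf1r* (279 CPM).

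Tendon marker levels were also lower in established Fosl-2(Tg) than in established WT tendon. The mean log2 CPM of the 8 tendon markers was 10.55 to 10.9 in established WT and 6.56 to 10.3 in established Fosl-2(Tg) libraries (difference -1.77, exact permutation test, two-sided, p = 0.00117, the smallest this design allows, adjusted p = 0.0117 over 10 lists), without overlap. Early, the difference was 0.16 (adjusted p = 0.276). After removal of group means, this level had an r over 28 libraries of 0.88 with *Igfbp4*, 0.76 with *Igfbp5*, 0.74 with *Igf1* and 0.66 with *Igfbp7*, and of 0.85, 0.37, 0.51 and 0.37 without established Fosl-2(Tg) replicate 5. The part of the tendon markers in the lower levels of these genes was not tested. Over the 28 libraries, r was 0.36 for *Igfbp2*, 0.195 for *Igfbp6*, 0.16 for *Igfbp3*, 0.04 for *Igf2r*, -0.17 for *Igf2* and -0.31 for *Igf1r*. The bone and cartilage list, with 2 genes measured, had an r of 0.72 with *Igfbp4*, 0.71 with *Igfbp3*, 0.47 with *Igf1* and -0.57 with *Igfbp6*. The 7 macrophage markers summed to 401 to 595 CPM in established WT and 512 to 812 in established Fosl-2(Tg) libraries (difference in mean log2 CPM 0.30, exact permutation test, adjusted p = 0.241). In the early cohort they summed to 515 to 859 CPM in WT and 429 to 636 in Fosl-2(Tg) libraries (difference -0.42, exact permutation test, adjusted p = 0.0435). The 8 skeletal muscle markers summed to 49.5 to 14800 CPM in established WT and 35.8 to 5146 in established Fosl-2(Tg) libraries, an overlapping range (exact permutation test, adjusted p = 0.685). They had an r of -0.54 with *Igfbp5* and 0.54 with *Igf2*. Other lists had similar values. For the adipocyte, endothelial and pericyte and smooth muscle lists, r was -0.45, -0.42 and -0.40 with *Igfbp5*. With *Igf2* it was 0.55, 0.52 and 0.51. With the muscle level as a covariate, *Igfbp4* was at -1.82 (adjusted p = 0.0129), *Igfbp5* at -1.25 (adjusted p = 0.0177) and *Igfbp7* at -0.76 (adjusted p = 0.0343). The erythroid list (5 genes) summed to 8.94 to 20.1 CPM in established WT and 10.2 to 126 in established Fosl-2(Tg) libraries (difference 1.70, exact permutation test, adjusted p = 0.146). The endothelial, pericyte and smooth muscle, adipocyte, keratinocyte, Schwann and bone and cartilage lists differed between established genotypes with adjusted p of 0.524 to 0.818 in exact permutation tests, and early with 0.300 to 0.594. Of the adipocyte list, *Adipoq*, *Plin1*, *Cidec* and *Lep* stayed under 1 CPM in every library, as did *Krt5*, *Krt14* and *Krt1* of the keratinocyte list and *Bglap*, *Ibsp* and *Sost* of the bone and cartilage list.

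Beyond the 10 members, 4 lists of related genes were followed. Of 22 further genes of IGF availability, 16 were tested in the established cohort, and 5 were called, 3 higher and 2 lower, against 6.51% of all genes (median of the 16, 0.23 log2). That count includes *Stc1* and *Pappa2*, which each passed the filter mainly through the genotype in which they were high, so it is not read as a result about the list. *Stc1*, encoding stanniocalcin, a secreted inhibitor of pappalysins, fell by 1.57 (SE 0.39, adjusted p = 0.0321) from 0.30 to 1.37 CPM in WT to 0.13 to 0.57 in Fosl-2(Tg) mice, with overlap. The filter's limit of 0.51 CPM, on library totals without TMM, was reached by 5 of 6 WT and 2 of 7 Fosl-2(Tg) libraries. *Stc1* was thus tested mainly through WT. *Kazald1*, a secreted protein with an IGF binding protein domain, fell by 1.38 (SE 0.29, adjusted p = 0.0201), from 27.7 to 35.1 CPM in WT to 3.68 to 21.9 in Fosl-2(Tg) mice, without overlap. *Htra3*, a secreted serine protease, rose by 0.87 (SE 0.19, adjusted p = 0.0207), from 198 to 326 CPM to 289 to 618. The other 2, named after their values were seen, were *Pappa2*, a protease that cleaves binding proteins (0.22 to 0.52 CPM in WT and 0.57 to 3.03 in Fosl-2(Tg) mice), and *Igf2bp3*, an RNA-binding protein (0.57, SE 0.16, adjusted p = 0.0482). *Pappa2* passed the filter through the Fosl-2(Tg) libraries, with 7 of 7 against 1 of 6 WT libraries at the limit, and nothing is read from its call. The call of *Igf2bp3* was lost with RLE scaling (adjusted p = 0.0509), without the filter (adjusted p = 0.059), among females (0.41, adjusted p = 0.124) and in 11 of 13 fits that left out 1 library. *Kazald1* and *Htra3* also had called interactions (adjusted p 0.0127 and 0.0158). That of *Stc1* was called too (adjusted p = 0.0111), but its established Fosl-2(Tg) libraries held 2 to 15 counts, and nothing is read from it.

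Downstream of the receptor, 2 of 28 tested signalling genes were called in the established cohort, both higher, a share close to the 6.51% of all genes, and the list's median was -0.01. Their calls, and that of *Stc1*, were lost in 7 of 13 fits that left out 1 library and among females (adjusted p 0.0676 for *Irs2*, 0.078 for *Foxo3* and 0.0929 for *Stc1*). *Irs2*, a docking protein of the insulin and IGF1 receptors, rose by 0.83 (SE 0.20, adjusted p = 0.0309), from 60.7 to 104 CPM in WT to 80.6 to 219.5 in Fosl-2(Tg) mice, and *Foxo3*, a transcription factor that AKT restrains, by 0.57 (SE 0.14, adjusted p = 0.0307), from 139 to 209 to 167 to 291 CPM. In the growth hormone list 2 of 10 were called, both higher, against 6.51% of all genes: *Ghr*, the growth hormone receptor, by 0.63 (SE 0.13, adjusted p = 0.0203), from 134.5 to 208 to 191 to 311 CPM, and *Socs3*, a feedback inhibitor of cytokine receptors, by 0.67 (SE 0.18, adjusted p = 0.0415), from 30.2 to 44.9 to 38.0 to 73.2 CPM. The call of *Socs3* was lost in 10 of those 13 fits, and that of *Ghr* in 0. *Ghr* had a called interaction (0.75, SE 0.22, adjusted p = 0.0340). Of 8 imprinted growth genes tested, edgeR called 0, DESeq2 called 0, and 0 had an unadjusted p under 0.05, the smallest being 0.0589 for *Cdkn1c*, an inhibitor of the cell cycle that was named after its values were seen. In the early cohort edgeR and DESeq2 called 0 genes of the 4 lists, of 14, 28, 10 and 8 tested, and 3, 1, 2 and 0 had an unadjusted p under 0.05.

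**Figure D5:**
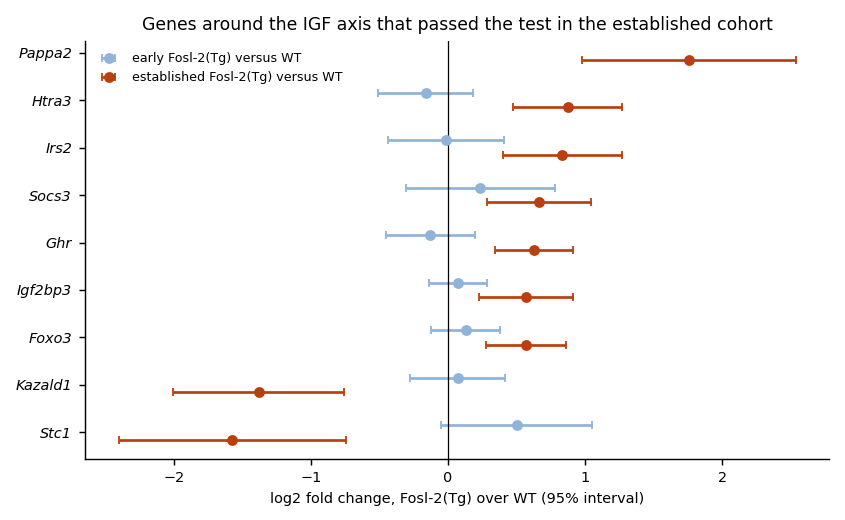
Log2 fold change of Fosl-2(Tg) over WT (horizontal axis) with 95% intervals for the 9 listed genes called in the established cohort, orange, beside their early estimates, blue. *Pappa2*, which passed the established filter through the Fosl-2(Tg) libraries, did not pass it early and has no early estimate, and the other 8 early intervals include 0.

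Between WT cohorts, 4 of 16 availability genes were called, all lower with stage, against 4.74% of all genes (2.76% lower): *Stc1* (-1.32, SE 0.35, adjusted p = 0.0485), *Ctsl*, a lysosomal protease (-0.96, SE 0.21, adjusted p = 0.0237), *Htra1*, a secreted serine protease (-0.87, SE 0.14, adjusted p = 0.00629), and, named after its values were seen, *Kazald1* (-0.66, SE 0.15, adjusted p = 0.0235). *Htra1* went from 264 to 433 CPM in early WT to 139 to 236.5 in established WT mice, without overlap. Of the 28 signalling genes 2 were called, against the same 4.74%: *Eif4ebp1*, a repressor of translation under mTOR control, fell by 0.59 (SE 0.11, adjusted p = 0.0141) and *Pik3cb*, a catalytic subunit of PI3K, rose by 0.35 (SE 0.086, adjusted p = 0.0379). Of the 10 growth hormone and 8 imprinted genes tested, edgeR and DESeq2 called 0, with an unadjusted p under 0.05 for 1 in each list. With sex as a covariate 0 of these 6 genes was called (adjusted p 0.368 to 0.816), and 0 of all genes. Between Fosl-2(Tg) cohorts, 9 of 16 availability, 14 of 28 signalling, 3 of 10 growth hormone and 4 of 8 imprinted genes were called, against 46.8% of all genes.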

How the data were processed

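RNA from tail tendon fascicles was depleted of ribosomal RNA and made into libraries with a NEBNext Ultra RNA kit. The authors aligned reads with STAR to GRCm39 with GENCODE M26 and counted them per gene with featureCounts. The deposited values are raw counts, 1 table of 25719 Ensembl identifiers per library, and the versions of STAR and featureCounts and the strand setting are not given in the sources used here. Totals were 9645598 to 66894396 counts per library (group medians 19350426 in early WT, 17901692.5 in early Fosl-2(Tg), 26998780.5 in established WT and 16638405 in established Fosl-2(Tg)), so precision is lowest for genes of few counts. Symbols came from GENCODE M39, which named 25505 identifiers and left 214 unnamed.

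Groups followed the labels. Each comparison was fitted by edgeR 4.0.16 in R 4.3.3, with TMM scaling, genes kept by filterByExpr (minimum count 10, minimum total 15) and the quasi-likelihood test adjusted by Benjamini-Hochberg across every gene in the fit, called at 0.05. The interaction used all 28 libraries. SE is the log2 fold change divided by the square root of F. Marker lists were compared as mean log2 CPM (prior count 2, with 0.5 giving the same calls) by exact permutation over libraries. The labels do not say whether libraries are from separate litters, and p-values set group differences against the variation between these mice. No 2 libraries of a group agreed within counting noise (lowest chi-square per degree of freedom 7.45). The 10 members and the lists were chosen with earlier results of these data known. From the related lists, the text names per comparison up to 3 called genes with a mean of at least 1 CPM and the largest change, and names others as chosen after their values were seen. All 10 members are named, and for *Igf1*, *Igf2* and the binding protein with the largest established difference the 3 genes of highest Pearson correlation over group-centred log2 CPM.

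Same-numbered early mice deviated together in 7 of 7 pairs (r 0.13 to 0.36), a pairing that comes from the data and not the labels, although 1 of 14 libraries correlated best with its own number. On simulated counts with changed genes, the steps recovered 99.5% of them in the early and established comparisons (15183 and 16024 genes), with 4.78% of calls false in each. Recovery was 99% with 1.98% false between WT cohorts (15744 genes), 98.5% with 6.19% false between Fosl-2(Tg) cohorts (15595 genes) and 90% with 2.7% false for the interaction (16030 genes). The simulation gave every gene the same spread between libraries and made only large changes. Its rates check the steps and are not the shares of true changes found, or of false calls, in these data. Alternatives were other scalings (RLE and library totals, the latter chosen after the scaling factors had been seen), no filter, DESeq2 1.42.0, the replicate number as a block, 1 fit for all libraries, sex as a covariate or 1 sex alone, the muscle marker level as a covariate, and each library left out. *H19*, *Meg3* and protein sequences were not analysed here.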

Additional observations from a re-analysis of the deposited data

Results flagged for a closer look

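*Igfbp2* in early WT replicate 5 was at 18.1 CPM, far above the next highest library of its group at 6.01 CPM. *Igfbp2* in established Fosl-2(Tg) replicate 7 was at 0.99 CPM, with the next at 0.42 CPM. *Igfbp3* in established WT replicate 3 was at 14.9 CPM, with the next at 8.62 CPM. These are 3 of 40 groups of libraries tested for a library that stands apart, and chance gives about 1 in 20. The genotype difference of *Igfbp4* was lower in the established than in the early cohort by a log2 difference of -1.98 (SE 0.45, adjusted p = 0.0116 in edgeR's interaction test).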

How the results depend on the processing

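Between established genotypes, 1 member was called, against 4 with DESeq2, 4 with all libraries in 1 fit, 4 with sex as a covariate, 4 without TMM, 3 with the muscle level, 2 among females and 0 to 2 with a library left out. All genes called were 1032, against 2177 with DESeq2, 1663 with 1 fit, 560 among females, 1739 with the muscle level, 7544 without TMM (7236 higher and 308 lower, against 498 and 534) and 361 (without WT replicate 1) to 1166 with a library left out. Early, 6 genes became 25 with DESeq2 and 4 to 12 (the latter without WT replicate 4) with a library left out. Between WT cohorts, 742 genes became 1622 with DESeq2, 1255 with the muscle level, 1143 without TMM (1007 higher and 136 lower, against 310 and 432), 229 to 954 with a library left out, and 0 among males or with sex as a covariate, where the member count also went from 1 to 0. Those fits leave 1 established library a genotype, assumed to vary like the others. Between Fosl-2(Tg) cohorts, 7235 genes became 4579 among males and 12478 without TMM (11869 higher and 609 lower, against 3751 and 3484), and with a library left out 5 to 8 members and 6434 to 7626 genes were called. For the interaction, 1 member became 2 with DESeq2, sex or the muscle level and 3 without TMM, and with a library left out 1 to 2, with 702 to 1876 genes against 1195 (8091 without TMM, 7837 higher and 254 lower, against 551 and 644). Scaling by totals moved the median of all genes to -0.19 early, 0.33 established, 0.23 in WT, 0.75 in Fosl-2(Tg) and 0.53 for the interaction. The causes were not tested.

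The replicate number is shared without a stated pairing outside the early cohort (r of pairs -0.22 to 0.69 established, -0.67 to 0.71 in WT and -0.13 to 0.27 in Fosl-2(Tg), with 5 of 12, 3 of 12 and 3 of 14 libraries correlating best with their own number). With the replicate block, 11 early genes, 3 established members, 441 genes between WT cohorts, 6 members between Fosl-2(Tg) cohorts and 3 members for the interaction were called.

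Signs that turned belonged to estimates that were not called, except *Igf2*, *Igfbp6* and *Igfbp7* between Fosl-2(Tg) cohorts. Without TMM, log2 fold changes turned early for *Igf1* (-0.049) and *Igf2r* (-0.063), established for *Igfbp6* (0.027), in WT for *Igf2r* (0.033), in Fosl-2(Tg) for *Igf2* (0.18), *Igf2r* (0.66), *Igfbp6* (0.23) and *Igfbp7* (0.0091), and for the interaction for *Igfbp3* (0.079), *Igfbp6* (0.35) and *Igfbp7* (0.032). With the muscle level, early *Igf1* (-0.049), *Igf1r* (0.022), *Igfbp5* (0.035) and *Igfbp6* (0.022) turned. With the replicate block, early *Igfbp5* (0.020), established *Igfbp3* (-0.54) and the interaction of *Igfbp2* (-0.024) turned. WT stage estimates turned for *Igfbp5* among males (-0.023) and with sex as a covariate (-0.023), and for *Fosl2* likewise (-0.17 and -0.18). With a library left out, early *Igf2* ran from -0.28 to 0.13 (the latter without WT replicate 5) and early *Igfbp5* from -0.19 to 0.016 (turning without WT replicate 1 or 3). Established *Igf2* ran from -0.0054 (without Fosl-2(Tg) replicate 3) to 0.25 and *Igfbp3* from -0.19 to 0.53 (turning without Fosl-2(Tg) replicate 6 or 7). The interaction ran from -0.037 (without early WT replicate 5) to 0.37 for *Igf2* and from -0.64 to 0.48 for *Igfbp2* (turning without early WT replicate 5 or established Fosl-2(Tg) replicate 7). Depth limits *Igfbp2*, with at most 26 counts in any established library.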
